A study of Mus musculus with 2 samples.

Results

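CTCF peaks at the zinc finger genes named Zfp and a number were examined in E14TG2a.4 cells. Of 42335 peaks on autosomes 1 to 19 in the authors' conservative IDR set (peaks that recur between replicates), 320 (0.756%) had their summit inside such a gene or within 5 kb of it. The genes were the 360 protein-coding genes of this name among 20665 in the RefSeq table of the mm10 build. A gene was called clustered when another Zfp gene lay within 100 kb, and single otherwise. There were 208 clustered genes in 50 clusters, with 135 peaks, and 152 single genes, with 185 peaks. No peak fell in both classes, and 10 peaks lay in the windows of more than 1 Zfp gene.

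The series held ChIP-seq for CTCF from E14TG2a.4, a line of mouse embryonic stem cells (129/Ola strain, male), with no treatment named in the labels. It consists of 2 libraries, labelled as biological replicates 1 and 2, and of no other condition, so regions were compared with one another and the replicates with each other, and no test between groups was possible. Both come from 1 line, and the labels do not say whether the cultures were separate. Peak lists hold no expression values, so the cell type could not be checked against its markers.

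CTCF is itself a zinc finger protein. It binds a long motif with a run of its fingers, stops cohesin as it extrudes loops of chromatin, and marks many boundaries between chromosome domains. Many Zfp genes arose by tandem duplication and encode repressors in which a KRAB box, which recruits the corepressor TRIM28, stands before an array of fingers. In embryonic stem cells several of these repressors silence retroelements or guard imprinted genes.

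The DNA under the peaks could be read on the mm9 build only, where 264 broad peaks lay at the 333 Zfp genes of its annotation. A CTCF motif of 20 bases, learned from peaks elsewhere in the genome, has TGGCCACCAGAGGGCGCTAG as its most frequent bases. The 8 sites here are the best motif matches within 50 bp of the midpoint, for the strongest mm9 Zfp peaks that hold one. They were found by sequence alone, and contact of the protein with these bases was not measured. Strong peaks without a match there, such as a peak in Zfp362 (signal 27.0), are not shown. Capitals mark the match, with 5 bases on each side, 5′ to 3′ on the strand of the motif.
Zfp536, chr7:38145354-38145383, minus strand: tggtgCCACCAGTAGATGGCAGCATctgca
Zfp384, chr6:124980712-124980741, minus strand: gagccTGCCCAGCAGGAGGCGCTGCtgagc
Zfp423, chr8:90239845-90239874, plus strand: ttcttCTTCCACAAGAGGGCAGAGCgtctt
Zfp444, chr7:6145940-6145969, minus strand: ctctgTCACCAGGAGGGGGAGCCAAactcc
Zfp169, chr13:48593172-48593201, minus strand: cccatTGTCCACCAGGGGGCAGGCTtgttc
Zfp335, chr2:164731762-164731791, minus strand: tatggAGGCCAGAAGAGGGTGCTGTttacc
Zfp326, chr5:106347466-106347495, plus strand: actggAGGCCAGCAGAGGGCATCGGattcc
Zfp408, chr2:91487066-91487095, minus strand: tgagaAGTCCAGCAGAGGGCACTGGatcct

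The sites at Zfp444 and Zfp326 lay outside annotated genes, and the other 6 lay within a gene but outside its coding exons and UTRs. Their pooled mm9 signal ran from 30.2 at Zfp536 to 23.2 at Zfp326 and Zfp408. The site at Zfp536 had a signal of 38.3 in replicate 1 and 40.3 in replicate 2. That at Zfp444, the 1 clustered gene of the 8, had 29.8 and 29.4.

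CTCF peaks were found at a smaller share of Zfp genes than of protein-coding genes at large. Of the 360 genes, 173 (48.1%, exact Clopper-Pearson 95% interval 42.8 to 53.4) had a conservative peak in their window, where 59.7% of all protein-coding genes had one. Among clustered genes 88 of 208 had a peak (42.3%, interval 35.5 to 49.3), and among single genes 85 of 152 (55.9%, interval 47.7 to 64.0). The difference of clustered minus single was -13.6 percentage points, with an interval of -24.1 to -2.76. These intervals cover counting error only, and neighbouring genes are not independent.

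Each replicate gave the same order on its own. When the 42335 strongest autosomal entries of a replicate's list were used, 43.8% of clustered genes had a peak in replicate 1 and 45.7% in replicate 2, or 44.7% ± 1.36 (SD, n = 2). Single genes were at 58.6% and 57.9%, or 58.2% ± 0.465 (SD, n = 2). All protein-coding genes stood at 59.6% and 59.7%. The gap between the classes was larger than the spread between replicates. That spread is over the same genes, so it shows how repeatable the lists are and not how certain the gap is. In the conservative set the gap narrowed to -5.11 points with a window of 10 kb on either side. With a cluster distance of 50 kb it narrowed to -8.18 points. It widened to -23.0 points when only peaks at or above the median signal were counted.

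**Figure D1:**
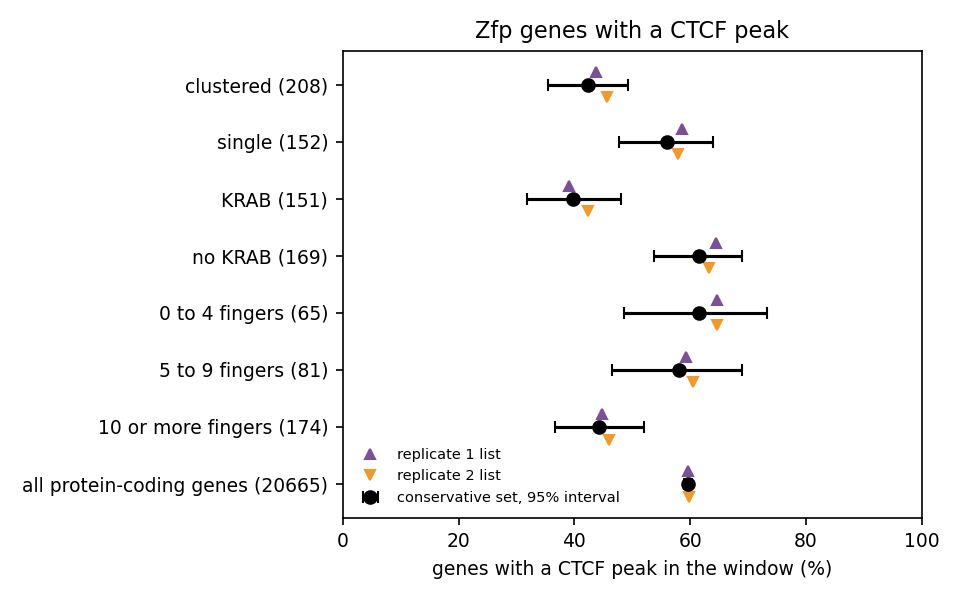
Share of Zfp genes, in percent, with a CTCF peak in the gene window, by class, by encoded protein and for all protein-coding genes (number of genes in parentheses). Circles are the conservative set with 95% Clopper-Pearson intervals, and triangles are the 42335 strongest entries of each replicate. Clustered genes (42.3%) and genes with a recognised KRAB box (39.7%) sit lowest.

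Longer genes offer more room for a peak, and the median length was 15788 bp for clustered and 20048 bp for single genes. Among genes of up to 10 kb, 53.3% of 30 clustered (interval 34.3 to 71.7) and 52.0% of 25 single genes (interval 31.3 to 72.2) had a peak. Both intervals include the 37.4% of all protein-coding genes of that length. Among genes of 10 to 20 kb, 42.4% of clustered and 43.1% of single genes had one, below the 59.5% of all. The shares were furthest apart between 20 and 50 kb, with 37.5% of 80 clustered genes (interval 26.9 to 49.0) and 63.6% of 44 single genes (interval 47.8 to 77.6), beside 67.4% of all. Over 50 kb, 3 of 6 clustered genes and 68.8% of 32 single genes (interval 49.99 to 83.88) had a peak, beside 86.6% of all.

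Counted over DNA with all gene lengths together, the density was close to that of genes in general. Zfp windows held 2.20 peaks per 100 kb, clustered windows 2.12, single windows 2.26 and all protein-coding windows 2.38. The ratio of Zfp to all windows was 0.924, with an interval of 0.826 to 1.03. Within bands of gene length the densities varied more. At 10 to 20 kb they were 2.93 clustered, 2.60 single and 4.29 for all protein-coding genes. At 20 to 50 kb they were 1.72, 2.83 and 3.36, and over 50 kb 0.285, 1.82 and 1.90. Up to 10 kb the Zfp densities were the higher, at 4.49 and 4.03 beside 3.79.

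Peaks at clustered genes were weaker than those at single genes. Signal is the value the authors' peak caller gave each peak, on a scale that the sources do not state. The median pooled signal was 59.7 at clustered genes (interval 47.8 to 66.8), 92.0 at single genes (interval 81.1 to 100.1), and 78.6 at all protein-coding genes. The ratio of clustered to single was 0.649, with an interval of 0.477 to 0.823. Of the clustered peaks 13.3% were among the strongest 25% of autosomal peaks and 32.6% among the weakest 25%, while of the single peaks 30.3% and 22.2% were.

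Both libraries showed the difference. Relative signal is a peak's signal in a replicate divided by that replicate's median over the conservative peaks matched in both. At clustered genes its lowest, median and highest values were 0.205, 0.713 and 3.66 in replicate 1, over 130 peaks found there, and 0.212, 0.681 and 4.20 in replicate 2, over 131 peaks. At single genes they were 0.209, 1.18 and 4.40 in replicate 1 and 0.204, 1.17 and 5.06 in replicate 2, over 180 peaks each. The classes overlapped over nearly their whole range, and in both libraries the medians lay on opposite sides of 1. The mean of the medians was 0.697 ± 0.0225 (SD, n = 2) for clustered and 1.17 ± 0.00297 for single genes. Among peaks at or above the median signal the ratio of clustered to single was 0.905.

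**Figure D2:**
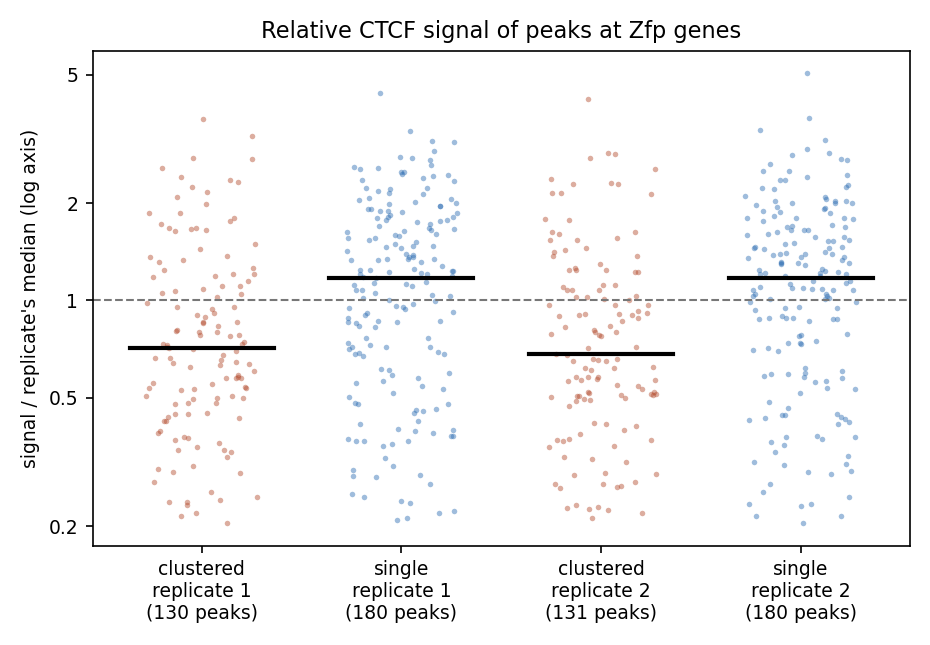
Relative signal of each CTCF peak at Zfp genes (log axis; signal divided by the replicate's median) in replicates 1 and 2, with clustered genes in red and single genes in blue. Points are peaks and black bars are medians. The clustered medians, 0.713 and 0.681, lie below the dashed line at 1, and the single medians, 1.18 and 1.17, lie above it.

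The strongest peak lay in Zfp687, a single gene on chromosome 3 (mm10, 94997050 to 94997339), 18751 bp into the gene. Its pooled signal of 385.5 ranked 13 among all autosomal conservative peaks, and its relative signal was 4.40 in replicate 1 and 5.06 in replicate 2. The next lay in Zfp993 on chromosome 4 (146740723 to 146740989), with a signal of 318.0, rank 81 and relative signals of 3.66 and 4.20. Zfp993 is a clustered gene whose RefSeq span runs over 478623 bp, and the summit was 227984 bp from its start.

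A peak in Zfp536, a repressor of neuronal differentiation, came next, with a signal of 286.9 and relative signals of 3.36 and 3.67. Peaks at Zfp362 (266.4), Zfp516 (253.8), Zfp647 (250.7), Zfp395 (238.0), Zfp219 (225.5), Zfp444 (222.9) and Zfp423 (221.6) completed the first 10. Of these 10 genes, Zfp993, Zfp647 and Zfp444 are clustered. The peak of Zfp647 lay upstream of the start and that of Zfp444 past the end of the gene, and the other 8 lay within gene bodies.

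The weakest members were a peak in Zfp423 (7.94), 1 past the end of Zfp251 (8.61) and 1 past the end of Zfp346 (9.50). The peaks of Zfp423 and Zfp346 had no summit within 100 bp in either replicate's list, and that of Zfp251 had one in replicate 2 only, with a relative signal of 0.263.

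The values at the edges of the rule are given as a description. Just inside the 5 kb edge lay peaks at Zfp418, Zfp846 and Zfp949, with signals of 61.6, 52.5 and 28.2, and just outside lay peaks at Zfp791, Zfp74 and Zfp445, with signals of 35.6, 74.3 and 22.9. Zfp932 and Zfp605, 97762 bp apart, were the last clustered pair, and Zfp715 and Zfp936, 104413 bp apart, the first outside.

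The genes with the most peaks were single genes. Zfp536, 456.0 kb long on chromosome 7 (37318023 to 37774039), had 14, or 3.00 per 100 kb beside 2.38 in all protein-coding windows, of which 12 lay in the gene body and 5 were among the strongest 25% of all. Their pooled signal ran from 28.9 to 286.9 with a median of 113.5, and the median relative signal was 1.29 in replicate 1 and 1.42 in replicate 2. A group of 6 of these peaks, with signals of 74.4 to 286.9, lay between 399966 and 427812 bp from the start of the gene.

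Zfp64 was much denser. It is 62.3 kb long on chromosome 2 (168893331 to 168955587) and had 10 peaks, or 13.8 per 100 kb, with signals from 38.1 to 194.0 and a median of 112.7. Its median relative signal was 1.61 in replicate 1 and 1.15 in replicate 2, so replicate 1 was the higher. Zfp423, a factor of adipocyte commitment, had 9 peaks over 300.2 kb, with signals from 7.94 to 221.6 and a median of 56.2. The strongest pair of these lay 246093 and 298477 bp from the start, towards the far end of the gene. Zfp469 followed with 8 peaks, and Zfp516, Zfp831 and Zfp341 with 6 each. No clustered gene had more than 5.

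Clusters differed widely from one another. The largest, 15 genes from Zfp84 to Zfp146 on chromosome 7 (29768552 to 30169775), had a peak at 10 of its genes and 15 peaks in their windows, with a median pooled signal of 92.3 and relative signals of 1.05 in replicate 1 and 1.23 in replicate 2. Zfp74, with 189.5 as its strongest signal, and Zfp82, with 186.9, stood highest. Zfp84, Zfp30, Zfp790 and Zfp940, which are neighbours at one end, had no peak.

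The 14 genes from Zfp712 to Zfp748 on chromosome 13 held peaks at 4 genes only, Zfp759, Zfp457, Zfp595 and Zfp459, with signals of 18.9, 46.9, 70.3 and 41.6. The 13 genes from Zfp677 to Zfp943 on chromosome 17 had peaks at 8, with a median signal of 70.3. They were led by Zfp54 (206.4) and Zfp51 (135.4), whose strongest peaks both lay within 1 kb upstream of the start. Zfp180 to Zfp94 on chromosome 7 had peaks at 2 of 10 genes, and Zfp978 to Zfp933 on chromosome 4 at 2 of 9, of which Zfp984 reached 168.9. Of the 50 clusters, 13 had no peak at any gene, the 5 genes from Zfp738 to Zfp273 among them.

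Over their whole span, the clusters had 2.10 peaks per 100 kb, and the 100 kb on either side had 2.89. Density was below that of the flanks in 26 of 50 clusters, and in 9 of the 15 with 5 or more genes, so the order varied from cluster to cluster. Zfp60 to Zfp850 had 0.707 per 100 kb inside and 6 outside. Zfp628 to Zfp580 had 7.94 inside and 4 outside.

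**Figure D3:**
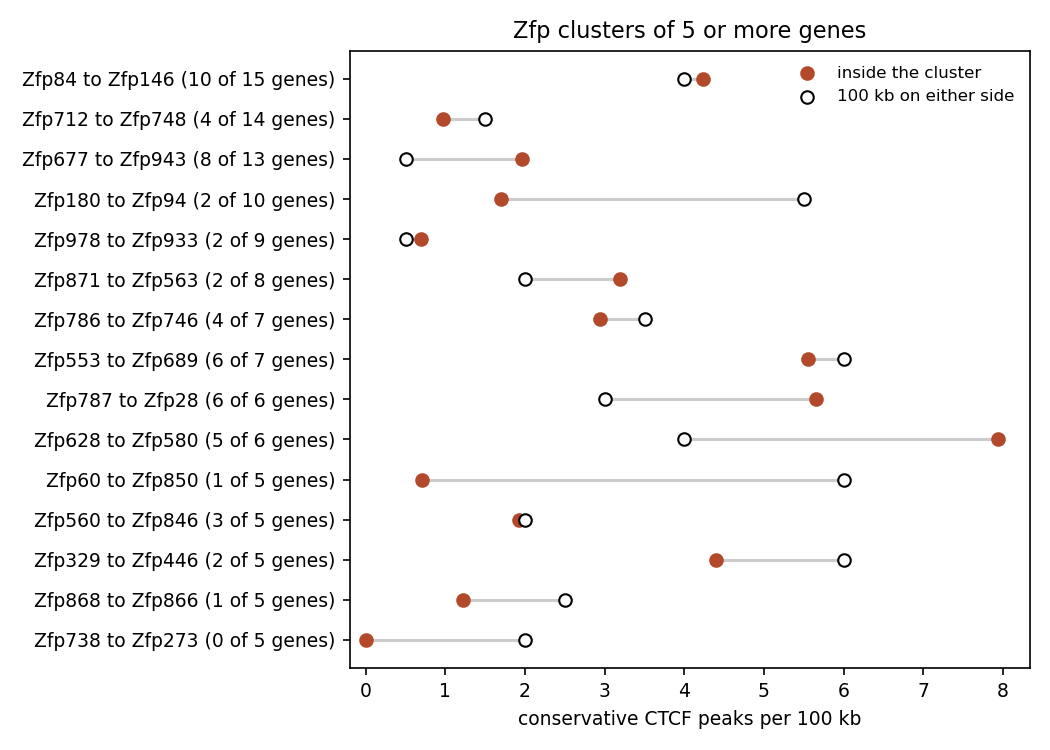
Conservative CTCF peaks per 100 kb inside each of the 15 Zfp clusters of 5 or more genes (filled) and in the 100 kb on either side (open), ordered by number of genes. Labels give the genes with a peak. Density is lower inside than outside in 9 of the 15.

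Along the gene, and without matching for gene length, Zfp peaks lay less in gene bodies and more at the ends than peaks of all protein-coding genes. Of the 311 Zfp peaks at genes with a known strand, 33 (10.6%, interval 7.42 to 14.6) lay within 1 kb of the gene start, beside 7.54% for all protein-coding genes. A further 14.5% lay upstream, beside 9.65%, and 19.0% past the end, beside 9.89%. Gene bodies held 55.9% (interval 50.2 to 61.6), beside 72.9%. Clustered genes had 44.0% of their peaks in gene bodies and 14.9% near the start, and single genes 65.0% and 7.34%. With no flank the share near the start was 5.35%, a value not computed for all protein-coding genes. Flanks are fixed at 5 kb, so they fill more of the window of a short gene. Genes over 50 kb took up 795 of 1124 Mb of all protein-coding windows. For single genes this was 4.79 of 8.19 Mb, and for clustered genes 1.05 of 6.36 Mb. Whether gene length accounts for the difference in place was not tested.

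Peaks near starts were weak. Their median pooled signal was 47.6 at Zfp genes, with relative medians of 0.579 in replicate 1 and 0.604 in replicate 2, and 68.1 at all protein-coding genes. Exceptions were the peaks of Zfp54 (206.4), Zfp74 (189.5), Zfp51 (135.4) and Zfp423 (130.1), chosen after their values were seen. A peak 80 bp upstream of the nearer start, in the windows of both Zfp786 and Zfp398, had a signal of 63.6 and relative signals of 0.801 and 0.799.

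**Figure D4:**
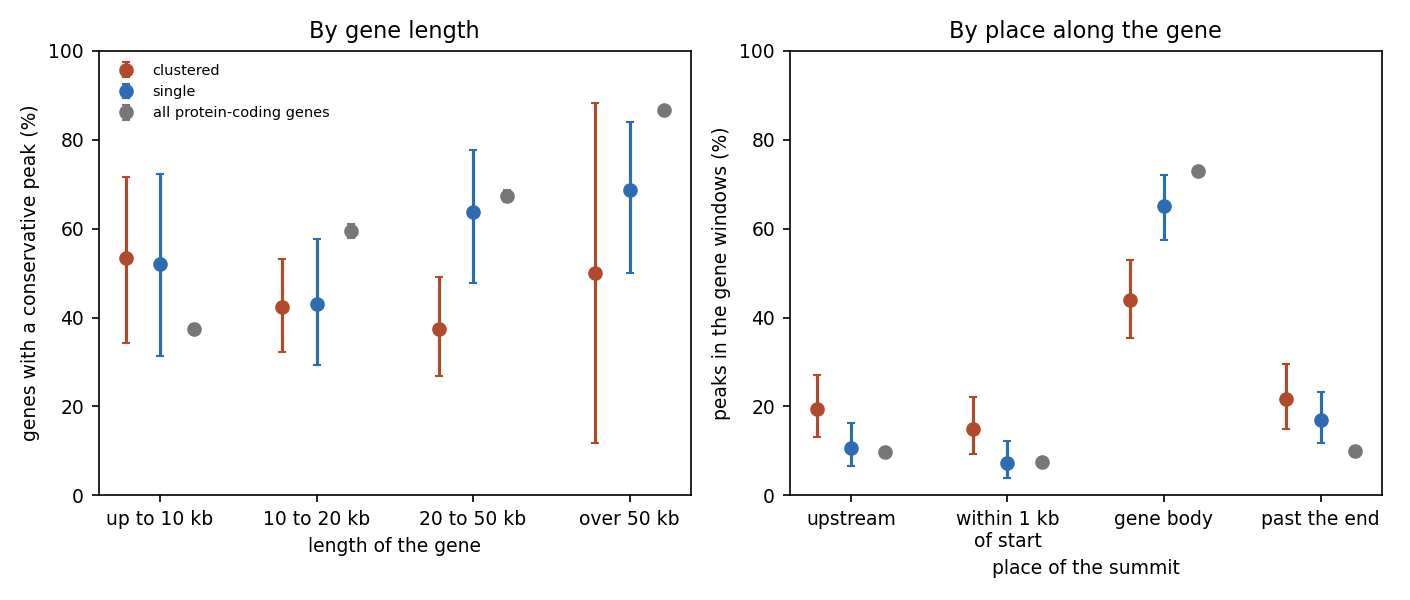
Left, percent of genes with a conservative CTCF peak by gene length. Right, percent of peaks by place of the summit along the gene. Red is clustered Zfp genes, blue single Zfp genes and grey all protein-coding genes, with 95% Clopper-Pearson intervals. Clustered genes of 20 to 50 kb stand at 37.5%, and the gene body holds 44.0% of clustered peaks against 72.9% of all.

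Genes in which a KRAB box was recognised had a peak less often than the others. Coding sequences of the mm9 annotation were matched by symbol to 320 of the 360 genes, and a KRAB box was recognised by a short string of conserved residues in the translated sequence. A KRAB box that lacks the string would be missed, so the genes without it may include KRAB genes. Zfp445 was among those without it. Of 151 genes with the string, called KRAB genes here, 60 had a conservative peak (39.7%, interval 31.9 to 48.0). Of 169 genes without the string 104 had one (61.5%, interval 53.8 to 68.9). The replicates' own lists gave 39.1% and 42.4% for KRAB genes and 64.5% and 63.3% for the others, the same order in both. The 40 genes with no match had a peak in 22.5%.

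The order was the same in both classes. Among clustered genes 38.5% of 117 KRAB genes (interval 29.6 to 47.9) and 57.1% of 63 others (interval 44.1 to 69.5) had a peak. Among single genes the shares were 44.1% of 34 (interval 27.2 to 62.1) and 64.2% of 106 (interval 54.3 to 73.2). The intervals overlapped in both classes. Among genes of 10 to 50 kb the shares were 41.7% of KRAB genes and 59.2% of others. Within KRAB genes, and within the others, clustered and single genes stood closer than over all Zfp genes (-13.6 points). Their intervals overlapped there. Fingers were counted in the same mm9 translated sequences and not checked against known proteins. Zfp143 and Zfp42 were counted at 1 each, so low counts may be incomplete. On this count 61.5% of genes with 0 to 4 had a peak (interval 48.6 to 73.4). Shares were 58.0% with 5 to 9 (interval 46.5 to 68.9) and 44.3% with 10 or more (interval 36.7 to 52.0). By strength, the median signal was 59.4 at clustered KRAB genes, 61.1 at clustered others, 98.2 at single KRAB genes (21 peaks) and 90.6 at single others.

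Genes with known roles were looked at through 4 short lists. Of 8 factors of embryonic stem cells, 2 had a conservative peak, beside 48.1% of all Zfp genes and 59.7% of all protein-coding genes. The share of all protein-coding genes was 37.4% up to 10 kb, the length of Zfp281 and Zfp296. It was 86.6% over 50 kb, the length of Zfp462. With 8 genes this is a description only. Zfp143, which binds many promoters and is often found beside CTCF, had 1 peak 22298 bp from its start with a signal of 197.2 and relative signals of 2.57 and 2.27. Zfp217 had 2 peaks, the stronger at 131.6 with relative signals of 1.60 and 1.60. Zfp42, the pluripotency marker also known as Rex1, had none, and neither had Zfp281, Zfp296, Zfp462, Zfp207 or Zfp706. The strongest entry in the window of Zfp42 in the pooled list, which also holds background, had a signal of 22.4.

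Of 6 genes that silence retroelements or guard imprints, 3 had a peak, near the 48.1% of all Zfp genes and the 59.7% of all protein-coding genes. Zfp568, the repressor of a placental Igf2 promoter, had 4, with signals of 28.7 to 101.7. Zfp57, which keeps methylation at imprinted regions, had 1 upstream of its start, of signal 104.1, with relative signals of 1.48 and 1.03. Zfp809, which silences retroviruses, had 1 of 41.9, with 0.680 and 0.369. Zfp445, Zfp708 and Zfp932 had none, and a peak at Zfp445 of signal 22.9 lay 5088 bp from the gene, just past the window.

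Of 9 genes of development and differentiation, 8 had a peak, and these held 34 peaks with a median signal of 88.9. The share of all protein-coding genes was 59.7%, and 86.6% among those over 50 kb, a length that Zfp536, Zfp423, Zfp521 and Zfp148 exceed. Besides Zfp536 and Zfp423, Zfp335, needed by neural progenitors, had 1 peak of 215.1 with relative signals of 2.46 and 2.74. Zfp219 had 5 peaks, of which the strongest reached 225.5. Zfp703, Zfp488, Zfp148 and Zfp521 also had peaks, and Zfp24 had none. Zfp536 gave 14 of the 34 peaks and Zfp423 gave 9.

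Of 4 genes that act on RNA or protein, 3 had a peak, a number too small to set against the 59.7% of all protein-coding genes. Zfp36, which encodes the mRNA decay factor tristetraprolin, had 2, the stronger at 155.3 with relative signals of 1.84 and 1.98. Zfp638 had 2, the stronger at 154.3 with 2.06 and 1.69. Zfp91, a ubiquitin ligase, had 1 of 45.3 with 0.530 and 0.558, and Zfp106 had none.

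The replicates ranked the Zfp peaks alike. Of the 320 peaks, 304 were matched in both lists. Among these 47 (15.5%) differed by more than 1.5-fold in relative signal, beside 17.3% of all matched conservative peaks, and 12 by more than 2-fold (3.95%, beside 3.16%). Of the 47, 24 were higher in replicate 1 and 23 in replicate 2. Across the 304 peaks Spearman's rho between replicates was 0.908, a description over peaks that share the same pair of libraries.

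The peaks that leaned most to replicate 1 were in Zfp663 (relative signals 2.09 and 0.834), Zfp760 (0.645 and 0.269) and Zfp157 (0.880 and 0.419). Those that leaned most to replicate 2 were at Zfp469 (0.515 and 1.22), Zfp788 (0.354 and 0.790) and Zfp653 (0.397 and 0.878). Of these 6, the peak in Zfp663 had the highest pooled signal, 121.7.

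**Figure D5:**
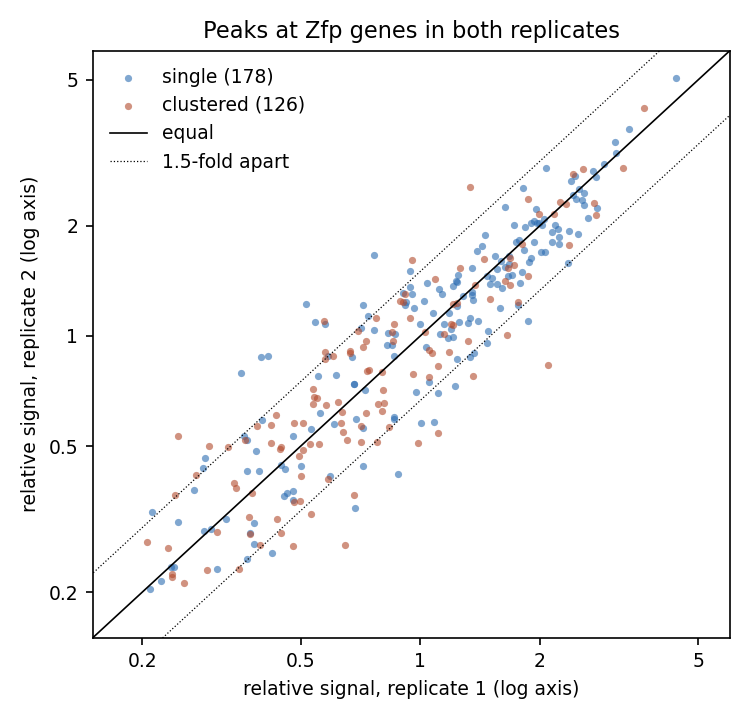
Relative signal in replicate 1 and replicate 2 (log axes) of the 304 CTCF peaks at Zfp genes matched in both, with clustered genes in red and single genes in blue. The solid line marks equal signal and the dotted lines 1.5-fold. Outside the dotted lines lie 47 peaks.

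On mm9, a CTCF motif stood within 50 bp of the midpoint of 129 of the 264 Zfp peaks (48.9%, interval 42.7 to 55.1). The share was 52.3% at all protein-coding genes, and the score was set so that 1.00% of flanking windows reach it. The Zfp peaks had a median width of 920.5 bp, so a motif further from the midpoint was not counted. Their median pooled signal was 10.8 with a motif and 13.1 without, beside 12.1 and 12.5 at all protein-coding genes. The 100 kb rule, applied to the mm9 annotation, called 179 of the 333 genes clustered. Clustered and single genes were close, at 48.1% and 49.4%, with intervals of 38.3 to 58.0 and 41.3 to 57.4. The median signal of clustered peaks was below that of single peaks on this build too, at 11.09 and 15.32 in replicate 1, and at 11.43 and 15.28 in replicate 2. The motif was on the strand of the gene at 71 of 129 sites (55.0%, interval 46.0 to 63.8). Of the 264 midpoints, 4 (1.52%) lay in coding exons and 14 (5.30%) in UTRs, beside 3.45% and 3.67% at all protein-coding genes. A further 147 (55.7%) lay elsewhere within genes and 99 (37.5%) outside genes, beside 70.0% and 22.9%.

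To see whether peaks of neighbouring Zfp genes lie in like sequence, the 20 bases on each side of the motif were compared between sites. Among the 61 pairs within a cluster a median of 11 of 40 flanking bases were identical, the same as in the 8195 other pairs, and none reached 32. The 3 most alike pairs within a cluster come from 5 peaks and are printed with 20 bases on each side of the capitals.
Zfp251, chr15:76687080-76687139, plus strand: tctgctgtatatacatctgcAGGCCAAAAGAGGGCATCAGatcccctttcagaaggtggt
Zfp251, chr15:76690529-76690588, minus strand: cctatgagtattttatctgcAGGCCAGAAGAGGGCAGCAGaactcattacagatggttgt
Zfp647, chr15:76738700-76738759, minus strand: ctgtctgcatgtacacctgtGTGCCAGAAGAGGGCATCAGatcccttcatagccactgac
Zfp420 and Zfp27, chr7:30683552-30683611, minus strand: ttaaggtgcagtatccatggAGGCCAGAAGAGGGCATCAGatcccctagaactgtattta
Zfp566, chr7:30870126-30870185, minus strand: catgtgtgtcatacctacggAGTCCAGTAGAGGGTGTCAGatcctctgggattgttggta

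The sites of Zfp251 shared 23 flanking bases, those of Zfp420 and Zfp27 and of Zfp566 shared 22, and the first site of Zfp251 and that of Zfp647 shared 22. Among the 8195 other pairs, 44 (0.537%) had 32 or more of 40 flanking bases identical. At so low a share, none among the 61 pairs within clusters does not set these apart. The 44 pairs joined 22 sites on 13 chromosomes, and in 3 of the 44 pairs both sites lay on the same chromosome. The most alike pair, a clustered and a single gene on different chromosomes, shared 39, and a further site, at Zfp952, shared 38 with that of Zfp568.
Zfp568, chr7:30773638-30773697, plus strand: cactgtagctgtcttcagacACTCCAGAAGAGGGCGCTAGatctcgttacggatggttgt
Zfp839, chr12:112100984-112101043, minus strand: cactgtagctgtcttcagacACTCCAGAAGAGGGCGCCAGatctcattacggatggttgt
Zfp952, chr17:33129074-33129133, minus strand: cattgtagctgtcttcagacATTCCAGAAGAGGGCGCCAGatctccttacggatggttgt

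Their pooled mm9 signals were 5.12 for Zfp568, 5.77 for Zfp839 and 10.7 for Zfp952, and the site at Zfp568 had no peak in the list of replicate 1. The 22 sites had signals of 4.36 to 23.2 with a median of 7.67, beside 10.8 for all 129 Zfp sites with a motif. Of the 22, 12 lay at clustered and 10 at single genes. As background, mouse B2 elements, a family of short interspersed repeats, carry a CTCF motif. Repeats were not annotated here, so the sites were not assigned to a family.

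Most of the alike sites printed run from the motif into the letters AGATC. This word, chosen after the sequences were seen, was looked for on the strand of the motif in the last 6 bases of the match and the 10 that follow. It was present at 25 of 129 Zfp sites (19.4%, interval 13.0 to 27.3), at 14.98% of motif sites at all protein-coding genes and in 1.09% of flanking windows of the same length. The most frequent bases of the motif end in AG, the first letters of the word. Flanking windows were not chosen to hold a motif, so their share is not a like baseline. At clustered genes 11 of 51 sites had the word and at single genes 14 of 78. Zfp sites with the word had a median signal of 8.44 and those without it 11.8, beside 8.86 and 12.7 at all protein-coding genes.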

How the data were processed

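CTCF ChIP-seq peak lists of 2 libraries were used. Per the labels, they are biological replicates 1 and 2 of E14TG2a.4. The authors deposited mm10 lists of peaks and background for each replicate and for both pooled, conservative and optimal IDR sets, and mm9 broad-peak lists. Column 7 of each deposited list was taken as a signal on the authors' scale. The sources used here do not give the peak caller, the aligner or the IDR threshold. Depth is unknown because the lists carry no read counts.

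The member rule, gene lists and comparisons were chosen with earlier results of these data known. Gene spans on mm10 came from RefSeq (GRCm38.p6), with strands from the RefSeq promoter table or, by symbol, GENCODE vM1, for 354 of 360 Zfp genes. Summits within 100 bp were matched. Each replicate alone was taken as its 42335 strongest autosomal entries. Intervals are exact Clopper-Pearson at 95%, for medians from binomial order statistics, for the difference of shares from both shares' bounds, for the ratio of medians from both medians' bounds and for the density ratio from the share of peaks. They cover counting error only.

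Genome sequence was at hand for mm9 only, so motifs, annotation and proteins used that build, with peak midpoints for want of summits. Annotation records of 1 symbol that overlapped or lay within 1 kb were joined. No coordinates were converted. The motif was learned by expectation maximisation from the 4000 strongest peaks of odd-numbered chromosomes away from Zfp genes, and its threshold, 13.0 bits, was the score reached by 1% of flanking windows. The fitting was tried on 1500 simulated sequences of random bases. A random word, shorter than the CTCF motif, was planted in 59.8% of them, and the fit gave 60.2%. Recovery of the CTCF motif in genomic sequence was not simulated. Named were the 10 strongest and 3 weakest member peaks, the genes with most peaks, the 5 largest clusters, listed genes, the 3 peaks furthest apart each way between replicates and those at the window's edge. Alternatives covered the peak set, strength, each replicate, the window, the cluster and start distances and the motif settings. Python 3.11.15, numpy 2.4.6, pandas 2.3.3, scipy 1.17.1, pysam 0.24.0 and samtools 1.23.1 were used.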

Additional observations from a re-analysis of the deposited data

How the results depend on the processing

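Of 71 values recomputed under the alternatives, 55 stayed within the interval of the reported value (for the count of peaks, within 1.5 times; for the relative signal, within 1 SD), 16 moved and 0 reversed. With peaks at or above the median signal only, there were 155 peaks at Zfp genes, with a median signal of 125.2, a share of genes with a peak of 27.5% and a clustered to single ratio of 0.905. With no flank there were 195 peaks, a share of genes of 30.6%, a density ratio of 0.808 and 5.35% of peaks near the start, and with 10 kb the share of genes was 58.9%. The share near the start was 5.79% within 500 bp and 16.4% within 2 kb. The share of mm9 peaks with a motif was 17.8% and 59.9% at scores reached by 0.1% and 5% of flanking windows. Leaving out each replicate gave a median signal of 35.3 to 36.4, on that list's own scale, and a motif share of 40.0% to 46.6%. Relative to all peaks of the list, a measure added after seeing the data, the Zfp median was 0.956, and 0.939 without replicate 1 and 0.905 without replicate 2. The causes were not tested, other than that fewer peaks or narrower windows hold fewer. No paired analysis was possible because there is a single group. Depth is unknown, and with 2 libraries small differences between classes could not be resolved.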

Other observations

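Of the 187 Zfp genes without a conservative peak, most still had an entry in the pooled list, which also holds background. No entry at all was present in the window of 17 of 120 clustered genes (14.2%) and of 11 of 67 single genes (16.4%), beside 26.8% of all protein-coding genes without a peak. Where an entry was present, the median of the strongest was 11.8 at clustered and 12.2 at single genes, against 11.4 at all such protein-coding genes. The highest reached 29.3 and 42.6. These shares were not matched for gene length. Over all windows, entries were thinner at clustered genes, at 13.1 per 100 kb, than at single genes (17.75) and all protein-coding genes (15.7). The spans of Zfp968 to Zfp965 and of Zfp987 to Zfp600 held no entry. On chromosome 2, no Zfp gene from Zfp968 to Zfp931 had an entry in its window. The lists do not show whether reads could be placed in such stretches, and these genes stay counted as genes without a peak. Whether the lack of entries bears on the lower share of clustered genes with a peak was not tested.

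Chromosome 7 held 90 of the 360 Zfp genes, and 58.9% of them had a peak (interval 48.0 to 69.2), beside 51.1% of its other protein-coding genes. Chromosome 13 held 32, of which 28.1% had a peak (interval 13.7 to 46.8), beside 53.1%. Chromosome 17 held 41, with 46.3% (interval 30.7 to 62.6), beside 59.1%. These chromosomes were chosen for their number of Zfp genes, and no test was made.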
